A study of Mus musculus with 2 samples.

Results

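Malat1, Neat1, Meg3, Rian, Mirg, Miat, Snhg11 and Kcnq1ot1 are 8 long noncoding RNAs described as retained in the nucleus. They were picked by symbol and are 8 of the 33696 features counted in each of 2 droplet libraries of brain tissue, given as prefrontal cortex in the study's design. Both libraries came from Shank3-/- mice, which lack a scaffold protein of the excitatory synapse. Mice of 1 library drank fluconazole, an antifungal azole, in their water for 2 weeks, and mice of the other were given vehicle. How many mice each library holds, their age and their strain are not given in the sources used here, and neither library comes from wild-type mice.

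The tags were read from the 3′ ends of transcripts and collapsed by unique molecular identifier (UMI), so that 1 UMI stands for 1 captured RNA molecule. Each barcode is 1 droplet, which the study calls a cell in some places and a nucleus in others. After filtering, 10610 barcodes with 68918276 UMIs remained for fluconazole and 12892 barcodes with 67877915 UMIs for vehicle, at medians of 5258 UMIs per fluconazole and 4327 per vehicle barcode. The libraries shared 45 barcode sequences. Barcodes fell into 36 clusters, built without the 8 RNAs, and 13 marker-defined classes had at least 50 barcodes in each library. Class names stand for clusters that carry the markers of that cell type (microglia-like, astrocyte-like and so on). Besides the cell types of cortex, clusters with markers of striatal spiny neurons and of dividing or migrating neuroblasts were present. Shank3 was read at 78.6 CPM (UMIs of a gene in 1000000 UMIs of its class and library) in fluconazole and 70.9 in vehicle glutamatergic neurons. Which part of the gene was deleted is not given in the sources used here, so these tags do not check the genotype.

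Nuclear long noncoding RNAs act where they are made or in nuclear bodies rather than being translated. Malat1 gathers in nuclear speckles, which store splicing factors, and ends in a triple helix with a genome-encoded A-rich tract instead of a poly(A) tail. Neat1 is the scaffold of paraspeckles. Its short isoform is polyadenylated, whereas its long isoform builds the body, and a 3′ tag count does not separate them here. Meg3, Rian and Mirg lie in the imprinted Dlk1-Dio3 domain and are expressed from the maternal chromosome. Rian hosts small nucleolar RNAs and Mirg hosts microRNAs. Miat, also called Gomafu, is a nuclear RNA of neurons, Snhg11 is a host gene of small nucleolar RNAs, and Kcnq1ot1 is transcribed from the paternal chromosome antisense to Kcnq1 and silences neighbouring genes in cis. Nuclear retention itself was not measured here, since no library separates nucleus from cytoplasm.

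In GENCODE vM21 on GRCm38, Malat1 spans chr19:5795690-5802672 and Neat1 lies beside it at chr19:5824708-5845478, both on the minus strand. Meg3 spans chr12:109541001-109571726, Rian chr12:109603940-109661716 and Mirg chr12:109729764-109749460, all on the plus strand. Miat spans chr5:112213228-112229395 on the minus strand, and Snhg11 spans chr2:158375638-158386145 on the plus strand, where the annotation calls it protein coding. Kcnq1ot1 spans chr7:143203458-143296549 on the minus strand and is annotated as antisense. Whether the counting used strand is not given in the sources used here, and without strand Kcnq1ot1 reads could not be told from reads of the overlapping part of Kcnq1.

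Because Meg3, Rian and Mirg varied together across classes, their start regions are shown. Each is a RefSeq window on GRCm38.p6 from 250 bases before to 50 bases after the annotated start, 5′ to 3′ on the plus strand, at chr12:109540746-109541045 for Meg3, chr12:109603695-109603994 for Rian and chr12:109734731-109735030 for Mirg. Capitals mark the letters TGACGTCA, TATAAA and CCAAT, searched on both strands. The RefSeq start of Mirg lies 5217 bases from the GENCODE start used above.
Meg3: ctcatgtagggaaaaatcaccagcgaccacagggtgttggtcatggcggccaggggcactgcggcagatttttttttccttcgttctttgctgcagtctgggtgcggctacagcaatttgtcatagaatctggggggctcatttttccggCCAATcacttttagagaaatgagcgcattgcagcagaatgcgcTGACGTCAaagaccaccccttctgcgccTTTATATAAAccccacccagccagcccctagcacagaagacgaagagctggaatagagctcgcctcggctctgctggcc
Rian: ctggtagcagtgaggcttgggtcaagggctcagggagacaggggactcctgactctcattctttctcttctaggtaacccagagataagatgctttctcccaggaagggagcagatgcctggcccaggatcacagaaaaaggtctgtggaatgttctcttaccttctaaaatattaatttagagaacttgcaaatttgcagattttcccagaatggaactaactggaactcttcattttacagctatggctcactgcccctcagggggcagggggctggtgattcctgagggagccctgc
Mirg: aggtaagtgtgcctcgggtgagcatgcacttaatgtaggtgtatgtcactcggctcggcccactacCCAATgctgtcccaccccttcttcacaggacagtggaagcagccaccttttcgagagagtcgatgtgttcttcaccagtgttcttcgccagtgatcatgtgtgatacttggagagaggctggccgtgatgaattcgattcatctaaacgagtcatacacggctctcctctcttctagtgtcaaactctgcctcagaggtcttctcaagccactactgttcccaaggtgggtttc
The Meg3 window held all 3 motifs: 1 CCAAT at -100, 1 TGACGTCA at -57, and 2 overlapping TATAAA matches on opposite strands, the first at -29, counted from the start. Of 32544 windows of this length, 1.80% held TGACGTCA, 13.6% TATAAA and 37.4% CCAAT. The Rian window held none of the 3, and the Mirg window held 1 CCAAT at -184. These matches describe letters only, since no binding was measured.

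The 3 genes also enclose annotated microRNA hairpins: 1 within the bounds of Meg3, 3 within Rian and 14 within Mirg. The 5′ arm of the first hairpin in each gene is printed to show what the precursors carry, with the seed (bases 2 to 8) in capitals. The microRNAs themselves were not measured.
miR-770-5p (Meg3): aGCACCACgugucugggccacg
miR-341-5p (Rian): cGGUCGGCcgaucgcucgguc
miR-382-5p (Mirg): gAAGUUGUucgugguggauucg
The 3 seeds differ from one another.

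Together the 8 RNAs supplied 3.70% of all UMIs in the fluconazole library and 3.28% in the vehicle library. The summed share was highest in astrocytes, at 6.55% in fluconazole and 5.72% in vehicle. It was lowest in blood leukocytes, at 1.34% in fluconazole and 1.32% in vehicle. Of the 8, 6 were highest in a neuronal class, whereas Malat1 was highest in astrocytes and Neat1 in border macrophages. All values below are sums over the barcodes of a class, as a percentage of UMIs or as CPM. Intervals are 95% and cover counting error only, because each treatment has 1 library and no replicate. For the same reason no p-value is given.

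**Figure D1:**
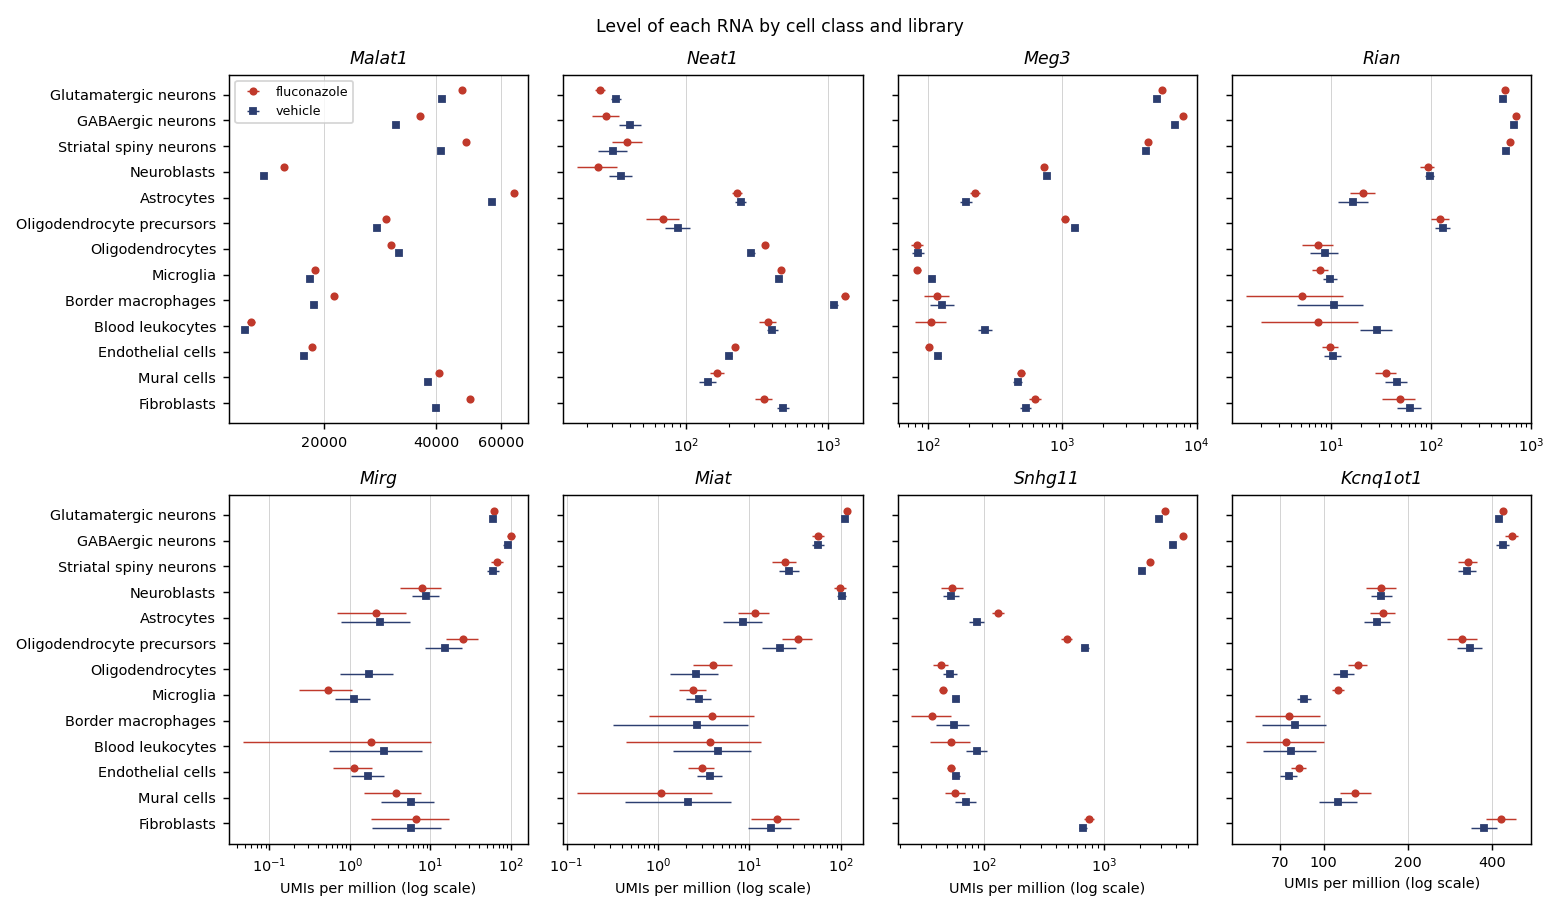
Level of each RNA in CPM (log axes that differ between panels) in 13 cell classes. Circles stand for the fluconazole library and squares for the vehicle library, with 95% exact Poisson intervals for counting error; a value of 0 (Mirg in border macrophages, and in fluconazole oligodendrocytes) is not drawn. Malat1 spans 4.84-fold between its highest and lowest class, whereas Meg3 spans 88.2-fold with neurons at the top and Neat1 spans 42.7-fold with neurons at the bottom.

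Malat1 was abundant in every class and varied less between classes than the other members did. In astrocytes it took 6.47% of UMIs in fluconazole and 5.65% in vehicle. Fibroblasts followed with 4.92% in fluconazole and 4.01% in vehicle, and striatal spiny neurons with 4.81% in fluconazole and 4.12% in vehicle. In glutamatergic neurons the share was 4.71% in fluconazole and 4.16% in vehicle. The ranges of the 2 libraries overlapped between fibroblasts, striatal spiny neurons and glutamatergic neurons, so these 3 classes had no clear order. Mural cells had 4.07% in fluconazole and 3.82% in vehicle, GABAergic neurons 3.62% in fluconazole and 3.13% in vehicle, and oligodendrocytes 3.04% in fluconazole and 3.19% in vehicle. Oligodendrocyte precursors had 2.95% in fluconazole and 2.78% in vehicle. Here GABAergic neurons and oligodendrocytes overlapped, and the other neighbours were apart.

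The classes with the least Malat1 were immune cells, endothelial cells and neuroblasts. Border macrophages had 2.14% in fluconazole and 1.88% in vehicle, microglia 1.89% in fluconazole and 1.84% in vehicle, and endothelial cells 1.86% in fluconazole and 1.77% in vehicle, and these 3 overlapped in order. Neuroblasts had 1.56% in fluconazole and 1.38% in vehicle, and blood leukocytes 1.27% in fluconazole and 1.23% in vehicle. Averaged over both libraries, the share in astrocytes was 4.84 times that in blood leukocytes. With only barcodes of at most 1% mitochondrial UMIs, which leaves 9 classes and no blood leukocytes, the ratio of highest to lowest class was 3.16. Within neuroblasts, the cluster led by the division genes Pbk, Ube2c and Top2a had 10588 CPM of Malat1 in fluconazole and 9893 in vehicle. The other neuroblast cluster had 17981 in fluconazole and 16132 in vehicle.

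Single barcodes spread widely around these shares. Over 1646 fluconazole glutamatergic barcodes the median Malat1 share was 4.69% with quartiles of 3.54% and 5.99%, and over 2011 vehicle barcodes it was 4.11% with quartiles of 3.18% and 5.15%. In microglia the median was 1.85% in fluconazole and 1.78% in vehicle, with an interquartile range of 0.76 percentage points in fluconazole and 0.80 in vehicle. Astrocytes had the widest interquartile range, at 3.93 percentage points in fluconazole and 3.28 in vehicle. After thinning each barcode to 1000 UMIs, Malat1 was found in at least 99.2% of barcodes in every class and library.

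**Figure D2:**
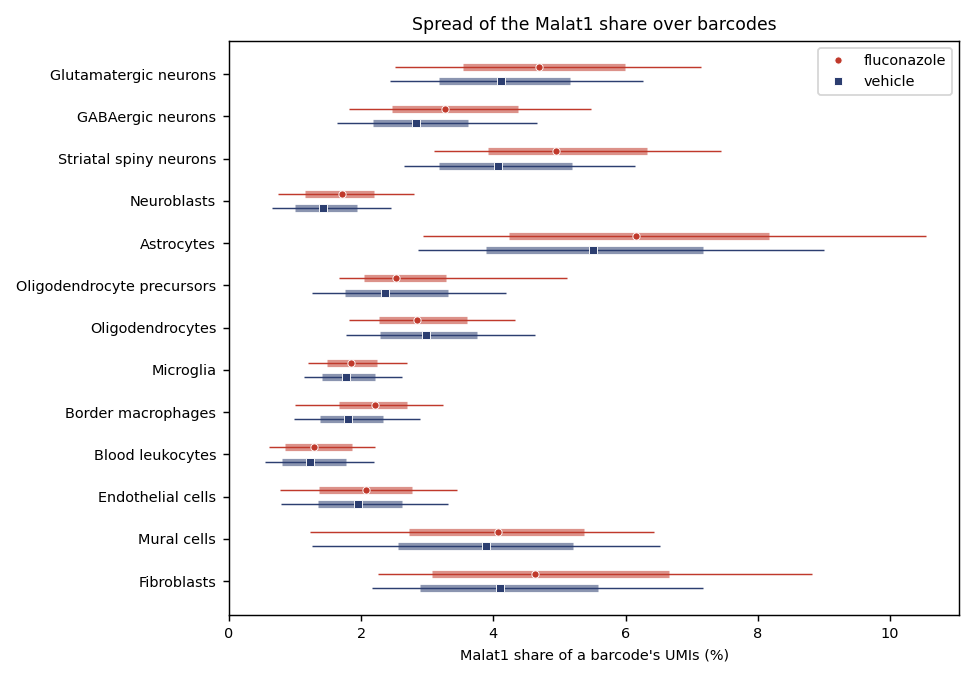
Malat1 share of the UMIs of single barcodes (%, linear axis from 0) in 13 classes, fluconazole above vehicle within each class. Points are medians, thick bars run between the quartiles and thin lines between the 10th and 90th percentiles over barcodes; glutamatergic medians are 4.69% in fluconazole and 4.11% in vehicle, and the quartile bars of the libraries overlap in every class.

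Across the 13 classes, Malat1 was high where transcripts of cytosolic ribosomal proteins were few. The correlation between Malat1 share and ribosomal protein share was -0.73 (Pearson) and -0.80 (Spearman) in fluconazole, and -0.73 and -0.78 in vehicle. Both shares come from the same libraries and totals, so this is a description. Against the mitochondrial share the Pearson correlation was -0.36 in fluconazole and -0.23 in vehicle, and against the median UMIs per barcode it was -0.04 in fluconazole and -0.06 in vehicle. Glutamatergic neurons had a ribosomal protein share of 0.42% in fluconazole and 0.55% in vehicle. Blood leukocytes had 17.2% in fluconazole and 16.1% in vehicle.

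Within classes the relation depended on cell type. Among barcodes of 4000 to 10000 UMIs, Malat1 and ribosomal protein shares correlated negatively in 18 of 18 combinations of library and class outside the 3 mature neuronal classes (Spearman's rho from -0.58 to -0.13). In the 3 neuronal classes the correlation was positive in 6 of 6 combinations, from 0.09 to 0.24. In endothelial cells rho was -0.53 in both libraries, over 817 fluconazole and 722 vehicle barcodes. In microglia it was -0.39 in both, over 2104 fluconazole and 2153 vehicle barcodes. In glutamatergic neurons it was 0.22 in both, over 618 fluconazole and 1149 vehicle barcodes.

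**Figure D3:**
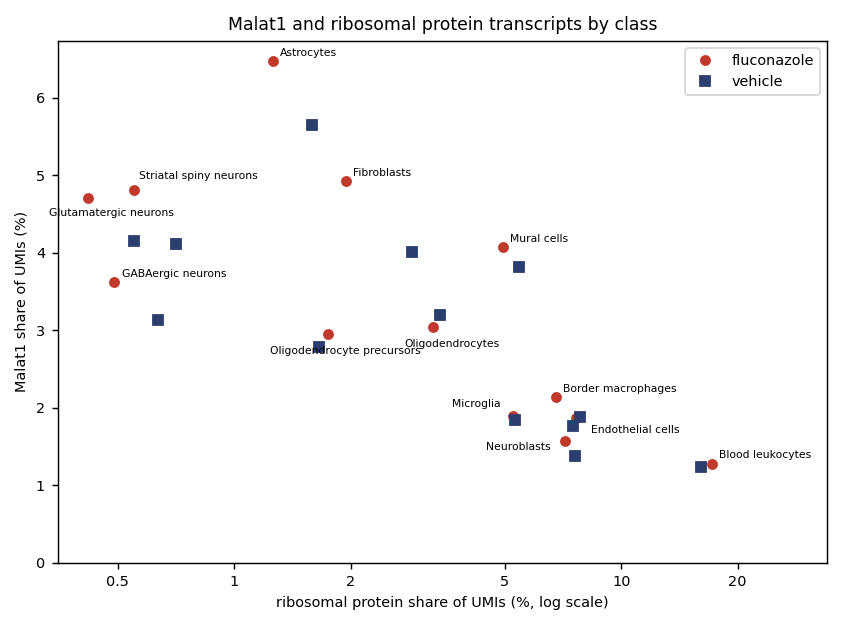
Malat1 share of UMIs (%, vertical, from 0) against the share of cytosolic ribosomal protein transcripts (%, horizontal, log axis) in 13 classes. Circles are fluconazole, labelled by class, and squares are vehicle; the points fall from upper left to lower right with Pearson's r of -0.73 in both libraries.

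Between the libraries, the Malat1 ratio lay above 1 in 12 of 13 classes and below 1 in oligodendrocytes. A gene was counted as higher or lower in a class when its ratio was at least 1.2 in either direction (0.26 on the log2 scale), its interval left out 1.0 and it had at least 50 UMIs over both libraries. By this measure Malat1 was higher in fibroblasts alone, with a log2 ratio of fluconazole over vehicle of 0.30 (interval 0.27 to 0.32). In glutamatergic neurons the log2 ratio was 0.18 (0.176 to 0.185), in astrocytes 0.20 (0.19 to 0.21) and in microglia 0.04 (0.03 to 0.05). Oligodendrocytes had -0.07 (-0.08 to -0.06), with -0.09 and 0.03 in their 2 clusters. The fibroblast call was lost after thinning to 1000 UMIs (0.23). The direction held in each class under all alternatives that gave a value (10 or 11 per class), with oligodendrocytes below 0 in 10 of 10. The narrow intervals reflect 979149 Malat1 UMIs in fluconazole and 776200 in vehicle glutamatergic neurons and say nothing of the spread between mice.

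Ribosomal protein transcripts moved the other way in several of these classes. In glutamatergic neurons 72 of 84 measured ribosomal protein genes were lower and 0 higher, with a median log2 ratio of -0.39, against -0.04 over all 16115 genes, of which 10.8% were lower and 6.04% higher. Rpl29 had 29.8 CPM in fluconazole and 46.6 in vehicle glutamatergic neurons, a log2 ratio of -0.65 (-0.80 to -0.50). Rps27rt had a log2 ratio of -0.67 (-1.29 to -0.06). In fibroblasts 71 of 81 were lower, with a median of -0.57, and in astrocytes 55 of 82, with a median of -0.33. In oligodendrocytes, where the Malat1 ratio was below 1, 2 of 83 were lower and 3 higher. The remaining classes all had a Malat1 ratio above 1. Among them, 50 of 81 were lower in GABAergic neurons (median -0.35) and 46 of 81 in striatal spiny neurons (median -0.38). Border macrophages had 21 of 81 lower (median -0.20), mural cells 10 of 83 (median -0.14) and neuroblasts 4 of 83 (median -0.07). In the last 4 classes the ribosomal genes were not lower as a list. Their median was 0.03 in endothelial cells, 0.00 in microglia, 0.09 in oligodendrocyte precursors and 0.10 in blood leukocytes. Mitochondrially encoded genes, the other cytoplasmic measure, gave 1 higher and 3 lower of 13 in glutamatergic neurons (mt-Nd1 at 0.33, mt-Atp8 at -0.66 and mt-Atp6 at -0.29 among them), and 0 in either direction of 13 in astrocytes. Fibroblasts had 4 of 11 lower and 0 higher, and the median log2 ratio was -0.22. The part of either list in the Malat1 ratios was not tested.

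Genes for proteins of nuclear speckles, where Malat1 resides, had list medians close to the median of all genes. In glutamatergic neurons 0 of 15 were higher or lower, with a median log2 ratio of 0.00. In fibroblasts 4 of 15 were higher and 0 lower, against 8.1% higher and 9.58% lower among 6109 genes. Of these 4, the largest log2 ratios were 0.64 for Luc7l3, 0.34 for Son and 0.33 for Pnisr, but 7 of the 15 lay above 0 and the median over the list was near 0. Fibroblasts had 1 of 6 members higher (Malat1) and 1 lower (Neat1), shares that can be read against the same background. Son encodes a core protein of speckles. In blood leukocytes 3 of 15 speckle genes were higher and 0 lower, against 12.3% and 9.96% of 5472 genes.

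Neat1 was high in myeloid cells and low in neurons. Border macrophages had 1323 CPM in fluconazole and 1106 in vehicle, 42.7 times the level in glutamatergic neurons when the libraries were averaged. Microglia had 465 in fluconazole and 454 in vehicle, fibroblasts 351 in fluconazole and 480 in vehicle, and blood leukocytes 377 in fluconazole and 405 in vehicle, and these 3 overlapped. Oligodendrocytes had 359 in fluconazole and 288 in vehicle, astrocytes 229 in fluconazole and 242 in vehicle, and endothelial cells 222 in fluconazole and 201 in vehicle. These were apart from their neighbours in the order.

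Below them, mural cells had 166 CPM of Neat1 in fluconazole and 142 in vehicle, and oligodendrocyte precursors 69.1 in fluconazole and 87.3 in vehicle. In the neuronal classes striatal spiny neurons had 38.6 in fluconazole and 30.6 in vehicle, and GABAergic neurons 27.1 in fluconazole and 40.3 in vehicle. Neuroblasts had 23.9 in fluconazole and 34.5 in vehicle, and glutamatergic neurons 24.7 in fluconazole and 32.2 in vehicle. These 4 classes overlapped. Among blood leukocytes the cluster led by S100a8 and S100a9, genes of neutrophils, had 642 in fluconazole and 703 in vehicle. The cluster led by Ccl5, Nkg7 and Cd3g, genes of T and natural killer cells, had 111 in fluconazole and 77.4 in vehicle.

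After thinning to 1000 UMIs, 67.5% of fluconazole and 58.2% of vehicle border macrophages held a Neat1 UMI. In glutamatergic neurons the share was 1.58% of fluconazole and 2.49% of vehicle barcodes, in a class with a median of 11270 UMIs per fluconazole and 7873 per vehicle barcode. Border macrophages had medians of 5853 UMIs in fluconazole and 4492 in vehicle. No class here is known to lack Neat1, so its free RNA could not be gauged, and the part of free RNA in the low neuronal values was not tested.

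The Neat1 ratio between libraries differed in direction by class. In oligodendrocytes, which had 1603 fluconazole and 1324 vehicle UMIs, it was higher in fluconazole, with a log2 ratio of 0.32 (0.21 to 0.43). Both oligodendrocyte clusters lay above 0, at 0.31 and 0.37. The call was lost with barcodes of 4000 to 10000 UMIs (0.23) and after thinning (0.27). It was 1 of 6 members measured in that class, of which 0 were lower, against 5.88% higher and 4.53% lower among 9992 genes. In border macrophages the log2 ratio was 0.26 (0.12 to 0.39), just short of the threshold, and in microglia 0.03 (-0.02 to 0.08).

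In fibroblasts Neat1 was lower, with a log2 ratio of -0.45 (-0.70 to -0.21). The cluster led by Lama1 and Aldh1a2 had 344 CPM in fluconazole and 557 in vehicle, and that led by Slc47a1 had 360 in fluconazole and 391 in vehicle. The ratio in glutamatergic neurons was -0.38 (-0.55 to -0.21), and 2 of 6 glutamatergic clusters were lower. It was -0.57 (-0.98 to -0.17) in GABAergic neurons, from 85 fluconazole and 133 vehicle UMIs. Of the GABAergic clusters, that led by Kcnc2 was at -0.91, from 48 fluconazole and 92 vehicle UMIs, and that led by Adarb2 and Vip was at 0.01, from 37 fluconazole and 41 vehicle UMIs. The neuronal calls were lost with doublets kept (-0.20 and -0.22 for glutamatergic and GABAergic neurons), with barcodes of 4000 to 10000 UMIs (-0.19 and -0.04) and after thinning (-0.44 and -0.20, at fewer counts). In the GABAergic class 0 of 8 members were higher and 1 was lower, against 4.5% and 7.3% of 10729 genes.

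Genes for paraspeckle proteins and others that bind Neat1 showed few changes beside it. In glutamatergic neurons 0 of 15 passed in either direction, with a median of -0.05. In oligodendrocytes 1 of 15 was higher: Pspc1, a core paraspeckle protein, had 80.0 CPM in fluconazole and 61.7 in vehicle, a log2 ratio of 0.37 (0.15 to 0.60). In fibroblasts Nono, another core paraspeckle protein, was higher at 0.89 (0.31 to 1.47), and Hnrnpk was lower at -0.45 (-0.87 to -0.04). In GABAergic neurons 1 of 15 was higher, Ewsr1 at 0.33 (0.14 to 0.52).

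The 3 RNAs of the Dlk1-Dio3 domain were RNAs of neurons. Meg3 had 7871 CPM in fluconazole and 6879 in vehicle GABAergic neurons. It had 5551 in fluconazole and 5079 in vehicle glutamatergic neurons, and 4341 in fluconazole and 4207 in vehicle striatal spiny neurons. These 3 classes and the next 4 were apart in the order. Oligodendrocyte precursors had 1044 in fluconazole and 1231 in vehicle, neuroblasts 729 in fluconazole and 764 in vehicle, fibroblasts 629 in fluconazole and 533 in vehicle, and mural cells 490 in fluconazole and 465 in vehicle. Astrocytes had 221 in fluconazole and 191 in vehicle.

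In the remaining classes Meg3 was low and their order was not resolved. Blood leukocytes had 105 CPM in fluconazole and 264 in vehicle, and border macrophages 116 in fluconazole and 127 in vehicle. Endothelial cells had 101 in fluconazole and 118 in vehicle, microglia 82.8 in fluconazole and 106 in vehicle, and oligodendrocytes 82.9 in fluconazole and 84.4 in vehicle. The level in GABAergic neurons was 88.2 times that in oligodendrocytes when the libraries were averaged. Thinned to 1000 UMIs, 98.6% of fluconazole and 98.2% of vehicle glutamatergic barcodes held a Meg3 UMI, against 8.47% of fluconazole and 10.2% of vehicle microglia, whose medians were 5992 UMIs in fluconazole and 4591.5 in vehicle.

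Meg3 also varied inside classes. In the dividing neuroblast cluster it had 101 CPM in fluconazole and 131 in vehicle, whereas the other neuroblast cluster had 1020 in fluconazole and 1142 in vehicle. The fibroblast cluster led by Slc47a1 had 1144 in fluconazole and 933 in vehicle, and the one led by Lama1 had 137 in fluconazole and 186 in vehicle. The mural cluster led by Kcnj8 and Abcc9, genes of pericytes, had 645 in fluconazole and 675 in vehicle. The mural cluster led by Tagln and Acta2, genes of smooth muscle, had 306 in fluconazole and 235 in vehicle. Glutamatergic clusters ranged from 4083 to 7900 as means of both libraries.

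Rian was highest in the same 3 neuronal classes. It had 707 CPM in fluconazole and 670 in vehicle GABAergic neurons, 623 in fluconazole and 557 in vehicle striatal spiny neurons, and 547 in fluconazole and 529 in vehicle glutamatergic neurons. The lowest class was border macrophages, with 5.16 in fluconazole and 10.7 in vehicle from 4 and 8 UMIs. Mirg had 99.2 in fluconazole and 90.5 in vehicle GABAergic neurons, 67.1 in fluconazole and 59.4 in vehicle striatal spiny neurons, and 60.9 in fluconazole and 59.1 in vehicle glutamatergic neurons. Only these 3 classes reached 50 Mirg UMIs. Border macrophages held 0 of 1520642 UMIs over both libraries, so that the GABAergic level was at least 48.1-fold higher, taking 3 counts over both libraries as the floor.

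The proportions of the 3 RNAs varied much less between classes than their levels. For every 100 Meg3 UMIs glutamatergic neurons held 9.85 Rian UMIs in fluconazole (interval 9.66 to 10.0) and 10.4 in vehicle (10.2 to 10.6). GABAergic neurons held 8.98 in fluconazole and 9.74 in vehicle, neuroblasts 12.7 in both, and microglia 9.49 in fluconazole and 9.25 in vehicle. Striatal spiny neurons had the highest ratio, 14.4 in fluconazole (13.5 to 15.3) and 13.2 in vehicle (12.5 to 14.0), above the intervals of the other 2 neuronal classes. Over the 22 combinations of library and class with at least 300 Meg3 UMIs the ratio lay between 7.20 and 14.4. Mirg had a median of 1.14 UMIs per 100 Meg3 UMIs over all 26 combinations. These are ratios of tag counts, not of levels per length.

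**Figure D4:**
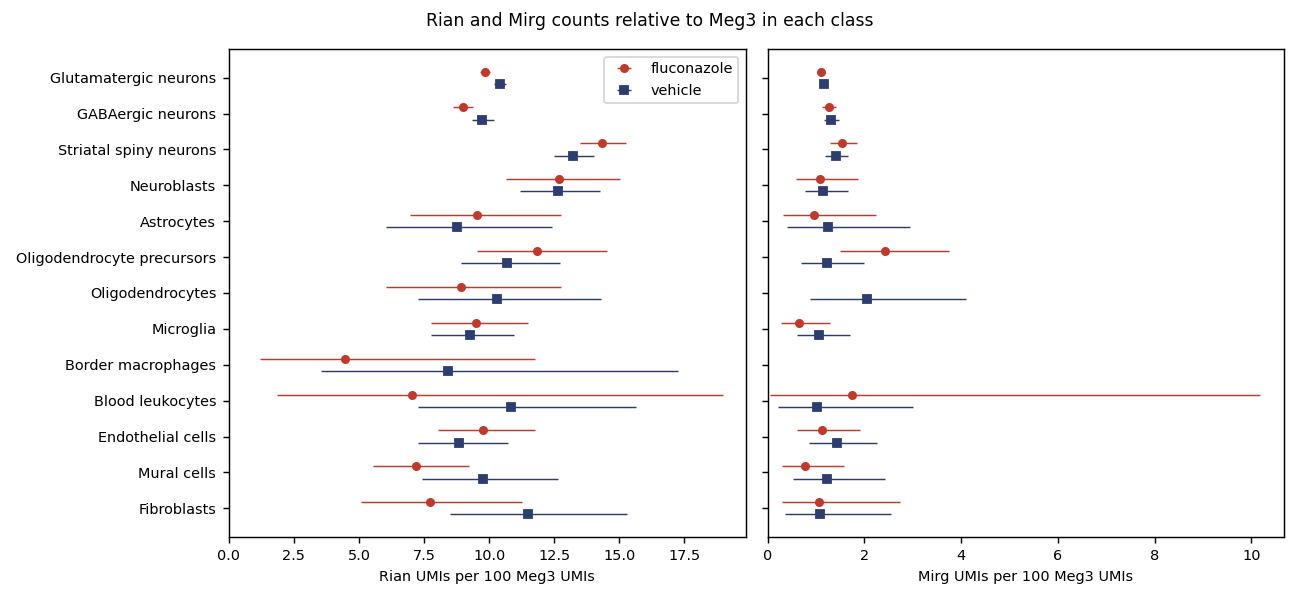
Rian UMIs (left) and Mirg UMIs (right) per 100 Meg3 UMIs in 13 classes on linear axes from 0, with circles for fluconazole, squares for vehicle and 95% exact binomial intervals for counting error. Ratios with no Rian or Mirg UMI are not drawn; striatal spiny neurons, at 14.4 Rian UMIs in fluconazole and 13.2 in vehicle, lie to the right of glutamatergic neurons, at 9.85 in fluconazole and 10.4 in vehicle.

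Neuronal free RNA could carry all 3 RNAs into other droplets in 1 proportion. To gauge it, 10 protein-coding genes of neurons (among them Snap25, Syt1, Rbfox3, Nrgn, Slc17a7 and Camk2a) were summed. Per 100 of their UMIs, glutamatergic neurons held 45.2 Meg3 UMIs in fluconazole (44.8 to 45.5) and 39.9 in vehicle (39.6 to 40.2), and GABAergic neurons held 88.0 in fluconazole and 73.8 in vehicle. Mural cells held 159 in fluconazole (143 to 177) and 130 in vehicle (116 to 147), above either neuronal class. Endothelial cells held 32.0 in fluconazole and 31.4 in vehicle, and microglia 19.9 in fluconazole and 23.1 in vehicle. These 2 classes carried gauge genes of their own: Rtn1 gave 3570 of the 6200 gauge UMIs of fluconazole microglia and 3442 of the 6989 of vehicle microglia. Stmn2 was at 90.2 CPM in fluconazole and 83.3 in vehicle endothelial cells, near the 100 and 103 CPM of fluconazole and vehicle glutamatergic neurons. Without Rtn1 and Stmn2, a gauge chosen after these values were seen, microglia held 48.2 Meg3 UMIs per 100 gauge UMIs in fluconazole (45.0 to 51.6) and 46.9 in vehicle (44.1 to 49.7). Endothelial cells then held 48.6 in fluconazole (45.4 to 52.1) and 43.7 in vehicle (40.9 to 46.6), and glutamatergic neurons 46.6 in fluconazole and 41.3 in vehicle. Mural cells held 172 in fluconazole and 147 in vehicle on that gauge, against 91.2 in fluconazole and 76.7 in vehicle for GABAergic neurons. So the place of microglia and endothelial cells relative to glutamatergic neurons depended on these 2 genes, and that of mural cells did not. With the full gauge, astrocytes held 2.36 in fluconazole and 2.26 in vehicle, in a class where the gauge genes themselves reached 9378 CPM in fluconazole and 8466 in vehicle.

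Between libraries, Meg3 ratios were small in the classes that express it most. The log2 ratio was 0.13 (0.12 to 0.14) in glutamatergic, 0.19 (0.17 to 0.22) in GABAergic and 0.05 (0.00 to 0.09) in striatal spiny neurons. Rian was at 0.05 (0.01 to 0.09) and Mirg at 0.04 (-0.07 to 0.16) in glutamatergic neurons. Rian was higher or lower in 0 of the 11 classes and Mirg in 0 of the 3 classes where they could be measured. Among all pairs of gene and class, 5.95% were higher and 7.48% lower, so these counts lay near the background. Other measured genes in or near the domain gave 0 calls of 6 in glutamatergic neurons, with a median of 0.04. They gave 0 of 6 in GABAergic neurons, with a median of 0.07. These 6 were Rtl1, Begain, Wdr25, Yy1, Ppp2r5c and Dync1h1. Dlk1 and Dio3 were not among them, so the medians describe this list and not the imprinted genes as such. In striatal spiny neurons 1 of 5 was higher, against 6.69% higher and 10.4% lower among 8929 genes. This was Rtl1, a paternally expressed imprinted gene with 73.4 CPM in fluconazole and 41.8 in vehicle, a log2 ratio of 0.81 (0.429 to 1.203). Rtl1 has an antisense partner, and its reads cannot be told apart from that partner's if the counting did not use strand.

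Meg3 was lower in microglia, at -0.36 (-0.46 to -0.25) from 1233 fluconazole and 1611 vehicle UMIs. The ratio was below 1 in 3 of 3 microglial clusters and the call held in 11 of 11 alternatives. Beside it, 7 of 10 free RNA gauge genes were lower in microglia and 0 higher, with a median of -0.40. The largest differences were -0.89 for Syn1, -0.61 for Stmn2 and -0.56 for Nrgn, a postsynaptic calmodulin-binding protein. In blood leukocytes Meg3 was lower at -1.33 (-1.77 to -0.92), from 57 fluconazole and 295 vehicle UMIs. There the summed gauge genes had 316 CPM in fluconazole and 642 in vehicle, a log2 ratio of -1.02, and 3 of 4 measured gauge genes were lower, with a median of -1.43. Among the blood clusters, that led by S100a8 had 125 CPM of Meg3 in fluconazole and 421 in vehicle, and that led by Ccl5 had 96.7 in fluconazole and 106 in vehicle. The blood call was lost with doublets kept (-0.17), at the coarser clustering (-0.32) and after thinning (-0.96). The part of free RNA in either result was not tested.

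Miat marked neurons and, unlike the other neuronal members, neuroblasts. It had 118 CPM in fluconazole and 111 in vehicle glutamatergic neurons, and 98.5 in fluconazole and 102 in vehicle neuroblasts. GABAergic neurons had 56.5 in fluconazole and 56.9 in vehicle, oligodendrocyte precursors 33.9 in fluconazole and 21.6 in vehicle, and striatal spiny neurons 24.3 in fluconazole and 27.1 in vehicle. The last 2 overlapped, and the classes above them were apart. In fibroblasts, with 20.1 in fluconazole and 17.3 in vehicle, and in astrocytes, with 11.4 in fluconazole and 8.62 in vehicle, the level rested on at most 27 UMIs per library. The other 6 classes lay between 1.60 and 4.08 as means of both libraries. Miat was higher or lower in 0 of the 7 classes where it could be measured, against 5.95% higher and 7.48% lower among all pairs of gene and class. Its log2 ratios ran from -0.32 in endothelial cells to 0.65 in oligodendrocyte precursors (-0.20 to 1.51).

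Snhg11 was concentrated in mature neurons. GABAergic neurons had 4520 CPM in fluconazole and 3773 in vehicle, glutamatergic neurons 3248 in fluconazole and 2908 in vehicle, and striatal spiny neurons 2429 in fluconazole and 2062 in vehicle, all apart in the order. Fibroblasts had 753 in fluconazole and 672 in vehicle, and oligodendrocyte precursors 491 in fluconazole and 699 in vehicle, which overlapped. Every other class averaged between 46.9 and 110, including neuroblasts, with 55.1 in fluconazole and 53.4 in vehicle. Neuroblasts thus held Miat near the glutamatergic level and Snhg11 near the microglial level of 46.4 in fluconazole and 58.6 in vehicle.

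Snhg11 ratios were positive in the 3 mature neuronal classes and mixed elsewhere. The log2 ratio was 0.16 (0.14 to 0.18) in glutamatergic, 0.24 (0.18 to 0.30) in striatal spiny and 0.26 (0.23 to 0.30) in GABAergic neurons, the last just under the threshold. In astrocytes it was higher, at 132 CPM in fluconazole and 87.6 in vehicle, a log2 ratio of 0.60 (0.33 to 0.87). The astrocyte value was 0.11 after thinning, 0.38 without the barcode with the most UMIs and 0.36 with doublets kept, and only thinning ended the call. Astrocytes had 1 of 6 members higher and 0 lower, against 4.05% and 6.51% of 10137 genes.

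Snhg11 was lower in 3 classes. In oligodendrocyte precursors the log2 ratio was -0.51 (-0.69 to -0.33), but at the coarser clustering it was 0.15. In microglia it was -0.34 (-0.48 to -0.19), and -0.02 after thinning. In blood leukocytes it was -0.72 (-1.37 to -0.11) from 29 fluconazole and 98 vehicle UMIs, and 0.43 with doublets kept. This last call was also lost with barcodes of 4000 to 10000 UMIs (-0.38), at the coarser clustering (-0.16), after thinning (-0.31) and without the barcode with the most UMIs (-0.45). The free RNA gauge genes moved with it in these classes: 4 of 7 were lower and 1 higher in oligodendrocyte precursors (median -0.52), 7 of 10 lower in microglia and 3 of 4 lower in blood leukocytes (median -1.43). Their part was not tested. Oligodendrocyte precursors had 0 of 7 members higher and 1 lower, against 7.97% in each direction among 6760 genes, and blood leukocytes had 0 of 5 higher and 2 lower, against 12.3% and 9.96% of 5472 genes.

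Kcnq1ot1 varied only 6.08-fold between its highest and lowest class. GABAergic neurons had 471 CPM in fluconazole and 438 in vehicle, glutamatergic neurons 441 in fluconazole and 424 in vehicle, and fibroblasts 432 in fluconazole and 376 in vehicle, and these overlapped. Striatal spiny neurons had 328 in fluconazole and 326 in vehicle, and oligodendrocyte precursors 314 in fluconazole and 334 in vehicle, which overlapped. Neuroblasts, astrocytes, oligodendrocytes and mural cells averaged between 121 and 161. Microglia had 113 in fluconazole and 85.1 in vehicle, endothelial cells 81.4 in fluconazole and 74.9 in vehicle, border macrophages 74.8 in fluconazole and 79.1 in vehicle, and blood leukocytes 73.6 in fluconazole and 76.2 in vehicle. The last 3 overlapped.

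The ratio for Kcnq1ot1 in microglia was past the threshold. It was higher in fluconazole with a log2 ratio of 0.41 (0.30 to 0.51), from 1679 fluconazole and 1294 vehicle UMIs, and was higher in 3 of 3 microglial clusters, at 0.33 to 0.48. Thinning, which left a log2 ratio of 0.20, was the only 1 of 11 alternatives to end the call. The gauge genes lay the other way in microglia, as given above for Meg3. Microglia had 1 of 7 members higher and 2 lower, against 5.11% and 6.6% of 13203 genes. In glutamatergic neurons Kcnq1ot1 was at 0.06 (0.01 to 0.10). Genes of the imprinted Kcnq1 domain, some of which Kcnq1ot1 silences in mice, gave 0 calls of 6 in microglia, with a median of 0.02. Kcnq1 itself was not among these 6. In glutamatergic neurons 1 of 7 was lower, Cd81 at -0.38 (-0.49 to -0.27). Cd81 was also lower in astrocytes (-0.41), neuroblasts (-0.41), fibroblasts (-0.33) and border macrophages (-0.32). It was higher past the threshold in no class. In oligodendrocytes 1 of 6 was higher and 1 lower, against 5.88% and 4.53% of all genes tested there. Cdkn1c, an imprinted inhibitor of the cell cycle, was lower at -0.50 (-0.91 to -0.10), and Cars was higher at 0.69 (0.10 to 1.29). Cdkn1c was also lower in endothelial cells at -0.46 (-0.57 to -0.35), where 2 of 7 were lower, against 6.76% of 12815 genes. The other was Kcnq1, at -0.33 (-0.56 to -0.10) from 295 fluconazole and 337 vehicle UMIs. In mural cells Cdkn1c was higher at 0.35 (0.06 to 0.63), where 1 of 5 was higher, against 5.74% of 8364 genes.

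**Figure D5:**
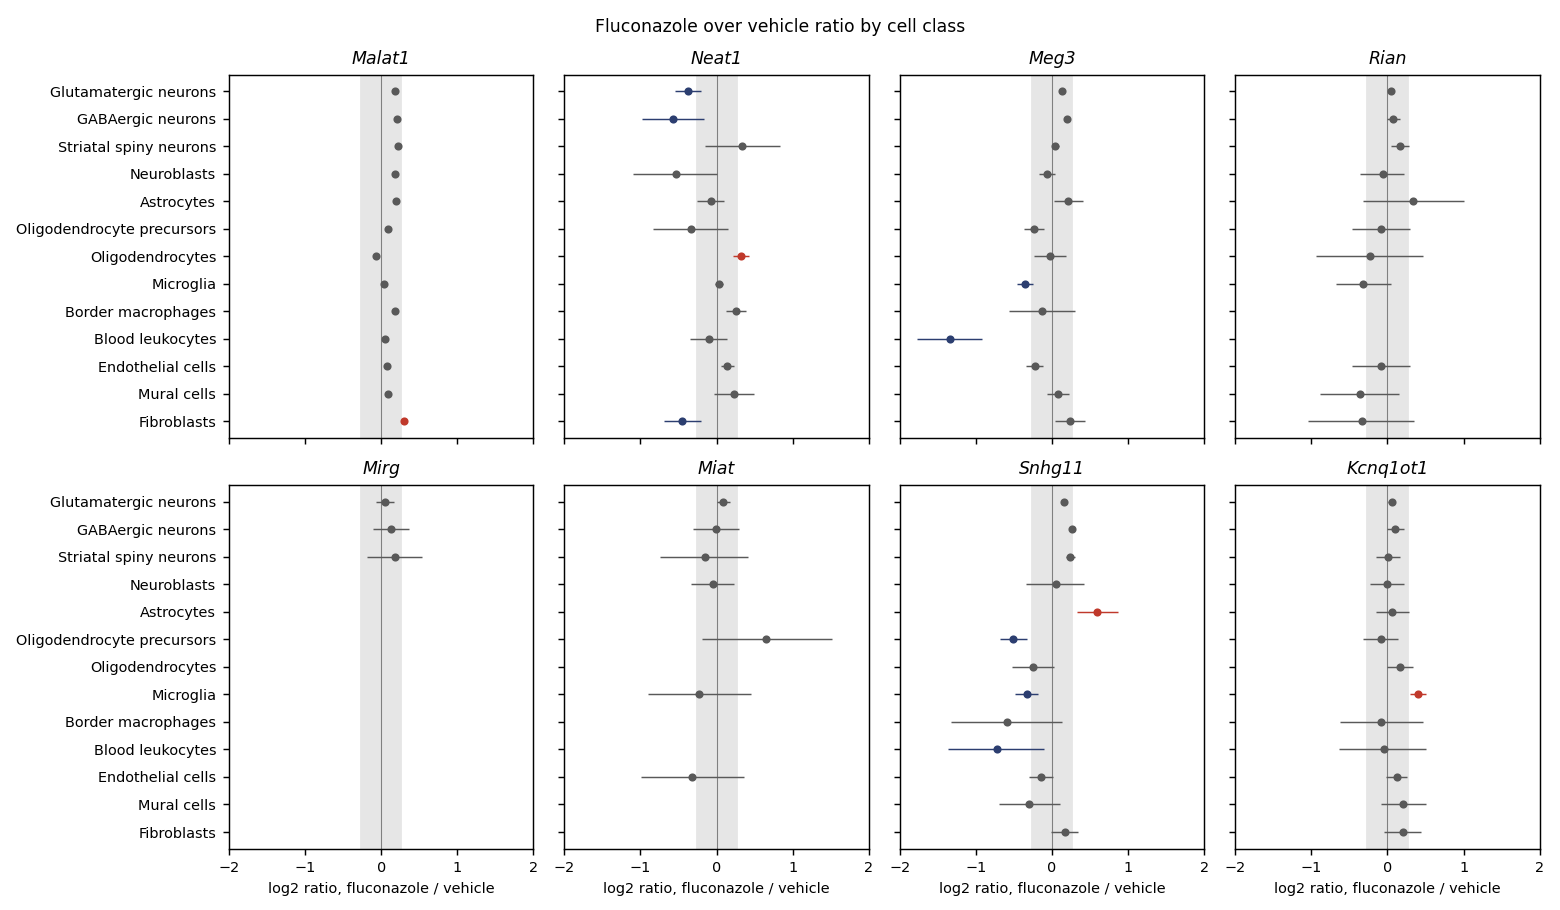
log2 ratio of fluconazole over vehicle for each RNA in each class with at least 50 UMIs, with 95% counting intervals. Red points are higher and blue points lower in fluconazole past 1.2-fold, grey points are not, and the grey band marks ratios under 1.2-fold; Malat1 lies to the right of 0 in 12 of 13 classes but passes only in fibroblasts.

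Taking all classes, 86 of the 104 pairs of RNA and class could be measured, of which 4 were higher and 8 lower in fluconazole and 74 were neither. The 4 higher pairs were Malat1 in fibroblasts, Neat1 in oligodendrocytes, Snhg11 in astrocytes and Kcnq1ot1 in microglia. That is 4.65% higher and 9.30% lower, against 5.95% higher and 7.48% lower among all 122980 pairs of gene and class, so the members' shares lay near the background. In glutamatergic neurons 0 of 8 members were higher and 1 lower, against 6.04% and 10.8% of 16115 genes. There 7 of 8 ratios lay above 1, with a median log2 ratio of 0.07, against -0.04 over all genes. In 5 classes 0 members passed in either direction. They were 5 measured members in border macrophages (6.1% of 4790 genes higher, 5.55% lower), 7 in endothelial cells (5.71% and 6.76% of 12815) and 6 in mural cells (5.74% and 5.24% of 8364). The others were 7 in neuroblasts (3.92% and 5.51% of 9565) and 8 in striatal spiny neurons (6.69% and 10.4% of 8929). Over all kept barcodes, unnamed clusters included, 8 of 8 ratios lay above 1, from 0.03 for Neat1 to 0.23 for Snhg11, and 0 passed the threshold in either direction, against 5.78% higher and 6.62% lower of 20048 genes. Pooled ratios also carry the mix of classes. Glutamatergic neurons gave 20784753 of the 68918276 fluconazole UMIs and 18673603 of the 67877915 vehicle UMIs. The part of this mix was not tested.

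Other long noncoding RNAs, listed without regard to where they reside, gave 2 higher and 6 lower of 29 measured in glutamatergic neurons. That is 6.90% and 20.7%, against 6.04% and 10.8% of 16115 genes. Their median was -0.08, against -0.04 over all genes. Dlx6os1, an antisense RNA of GABAergic neurons, had 8.85 CPM in fluconazole and 20.1 in vehicle, a log2 ratio of -1.19 (-1.45 to -0.93). Snhg1, a host gene of small nucleolar RNAs, was at -0.68 (-0.96 to -0.39), and Sox2ot, which overlaps Sox2, at -0.64 (-0.76 to -0.52). In microglia 2 of 30 were higher and 3 lower, against 5.11% and 6.6% of 13203 genes. The largest log2 ratios there were -1.46 for Dlx6os1, -0.67 for Pantr1 and -0.67 for Sox2ot. Dlx6os1 is also among the markers that named the GABAergic class.

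Across the 26 combinations of class and library, the profile of each RNA was compared with 11985 named genes on the log2 scale after adding 1 CPM. The profile closest to Meg3 was that of Rian (Pearson's r = 0.99), followed by Clstn2 and Mirg (0.98 each). Those closest to Snhg11 were Grin2a, Lrfn5 and Kcnip4 (0.99, 0.98 and 0.98), which encode an NMDA receptor subunit, a synaptic adhesion protein and a potassium channel partner. For Neat1 they included Sft2d2 (0.95) and Neu1 (0.94), which encodes a lysosomal enzyme. Miat was closest to Nlk, Nell2 and Srrm4 (0.97, 0.96 and 0.95), the last a neuronal splicing factor, and Kcnq1ot1 to Usp13, Btrc and Greb1l (0.96, 0.96 and 0.95). For Malat1 the best values were lower, with Miga2, Dync2i1 and Zmym6 at 0.88, 0.87 and 0.87. Neat1 and Meg3 correlated at -0.84. The 26 points share 2 libraries and the same 13 classes, so these values are descriptions.

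Among single barcodes of 4000 to 10000 UMIs the members followed each other more weakly. In glutamatergic neurons Spearman's rho between Meg3 and Rian was 0.29 in fluconazole and 0.25 in vehicle, and between Meg3 and Snhg11 0.37 in fluconazole and 0.35 in vehicle. In GABAergic neurons Meg3 and Rian reached 0.36 in fluconazole and 0.39 in vehicle. Malat1 and Snhg11 had 0.30 in fluconazole and 0.23 in vehicle glutamatergic neurons. Over all combinations with enough detection, Meg3 and Snhg11 ranged from 0.21 to 0.59 over 8, whereas Malat1 and Neat1 ranged from -0.21 to 0.36 over 15.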

How the data were processed

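UMI counts per gene and barcode were deposited by the authors for 2 libraries prepared with a droplet 3′ kit. The count matrices name Cell Ranger 8.0.1, per the file headers, while the submitters' processing notes give version 9.0.0 of it, the build mm10, and also R 4.0.3 with Seurat 4.0.0; intron counting and strand are not given in the sources used here. The design speaks of fresh prefrontal cortex as cells and nuclei, and the labels' protocols describe nuclei from frozen brain tissue. The deposited barcodes numbered 12637 for fluconazole and 14924 for vehicle, each with at least 500 UMIs. All 8 symbols matched GENCODE vM21, in which 31961 of the 33696 gene IDs occur.

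Barcodes under 500 genes or above 5% mitochondrial UMIs were left out, and doublets called by Scrublet (4.09% of fluconazole and 4.13% of vehicle barcodes) were removed. With scanpy 1.11.5, counts were scaled to 10000 per barcode, and 2000 variable genes per library, without the 8 RNAs, gave 30 principal components, 15 neighbours and Leiden clusters at resolution 1. Naming a cluster took 3 or more listed markers, each no less than 2-fold over the remaining clusters, by a rule written with the clusters at hand, and 5 clusters stayed unnamed. UMIs were summed per class and library. Intervals are exact Poisson for CPM, Clopper-Pearson for shares and exact conditional binomial for ratios, at 95%. With 1 library per treatment no test was possible. The calls were run on simulated counts for 16115 genes in glutamatergic neurons. There 89% of raised and 85% of lowered genes were recovered at 1.5-fold, and 2.32% of unchanged genes were called. The simulated counts were Poisson draws around pooled rates, which is the error the intervals already assume. They held no spread between mice, libraries or barcodes, so they cannot show how often the calls in the data are wrong. Correlations between barcodes used RNAs found in at least 50% of a class's barcodes. From each list the genes named are those with the largest differences past the threshold, at most 3 per class, and for each RNA the 3 most alike profiles; a few genes that this rule picks are not reported here. The 8 RNAs and all lists were chosen with earlier results of these data known.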

Additional observations from a re-analysis of the deposited data

Results flagged for a closer look

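Neat1 and Snhg11 each passed the threshold in opposite directions in different cell classes, which is why both are listed here. The log2 ratio of fluconazole over vehicle for Neat1 was 0.32 in oligodendrocytes, against -0.45 in fibroblasts, -0.57 in GABAergic neurons and -0.38 in glutamatergic neurons. For Snhg11 it was 0.60 in astrocytes, against -0.72 in blood leukocytes, -0.34 in microglia and -0.51 in oligodendrocyte precursors. The differences between classes were not tested, since each treatment has 1 library.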

How the results depend on the processing

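Against 4 pairs of RNA and class higher in fluconazole, the count was 8 with at most 1% mitochondrial UMIs, 10 with doublets kept, 9 and 8 at Leiden resolutions 0.5 and 2, 2 after thinning, 8 without the barcode with the most UMIs, 7 with median-of-ratios factors (each class's ratios shifted by their median over its genes with at least 50 UMIs) and 1 at a fold of 1.5. Against 8 lower pairs, it was 5 with barcodes of 4000 to 10000 UMIs, 4 after thinning and 2 at a fold of 1.5. The ratio of Malat1 in its highest to its lowest class, 4.84, was 3.16 with at most 1% mitochondrial UMIs. Snhg11 reversed in blood leukocytes with doublets kept (0.43) and in oligodendrocyte precursors at resolution 0.5 (0.15); the cause was not tested. All 12 calls held with the 8 RNAs left out of the total, with at least 1000 genes, at resolution 2, with clusters weighted equally and with median-of-ratios factors. Doublets kept left 8 of 12, thinning 3 of 12, at fewer UMIs per barcode. Between 5 and 6 members were highest in a neuronal class under every setting that gave levels. No paired analysis was possible because each treatment has 1 library, and for the same reason no library could be left out. Depth limits Mirg, Miat and Rian most: 18 of 104 pairs had under 50 UMIs.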

Other observations

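Barcodes outside the 13 classes also carried the RNAs. In barcodes above 5% mitochondrial UMIs, 1116 for fluconazole and 1012 for vehicle, the log2 ratio of Malat1 was 0.02 (0.00 to 0.03) and that of Meg3 -0.15 (-0.31 to 0.02). Among called doublets, 466 for fluconazole and 573 for vehicle, Malat1 was at 0.06, Neat1 at 0.23 and Snhg11 at 0.22. In the 5 unnamed clusters, with 769 fluconazole and 712 vehicle barcodes, Malat1 was at 0.15 (0.13 to 0.16).

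Some clusters differed from the rest of their class. In the mural cluster led by Kcnj8 and Abcc9, Neat1 had 132 CPM in fluconazole and 81.5 in vehicle, a log2 ratio of 0.69, whereas in the cluster led by Tagln it had 206 in fluconazole and 208 in vehicle. In the smaller oligodendrocyte cluster Kcnq1ot1 had 281 CPM in fluconazole and 182 in vehicle, a log2 ratio of 0.62, against 97.8 in fluconazole and 102 in vehicle in the larger one. These clusters were singled out after their values were seen.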
